A study of Mus musculus with 8 samples.

Results

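The genes described here encode proteins that recognise or remove N6-methyladenosine (m6A), the most common internal methylation of messenger RNA. All 10 of them were found by symbol among the 53507 gene rows of the count files: the YTH-domain readers Ythdf1, Ythdf2, Ythdf3, Ythdc1 and Ythdc2, the RNA-binding proteins Hnrnpa2b1, Hnrnpc and Fmr1, and the erasers Fto and Alkbh5. All 10 passed the filter on low counts. The cells were tdTomato-positive, came from mouse brain and are labelled progenitor cells. Their RNA was sequenced in 8 libraries of 400 pg total RNA each, 2 per group. The groups were pups at postnatal day 12 (P12) reared in hypoxia, at 10 ± 0.5% oxygen for 8 days from P3 to P11, pups at P12 kept in normal air (normoxia), and embryos at embryonic days 15 (E15) and 13 (E13), which the labels call wt. For both P12 groups the labels give no genotype, and say that control and hypoxic mothers were exchanged at P6 and P9. No label names the driver or line behind tdTomato or says whether replicates came from separate animals, so p-values measure only the spread between these libraries.

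m6A is written in the nucleus by a methyltransferase complex built on Mettl3 and Mettl14. YTH-domain proteins bind the methylated base directly: the nuclear Ythdc1 acts in splicing and export, and the cytoplasmic Ythdf proteins act in mRNA decay and translation. Fto and Alkbh5 are iron- and 2-oxoglutarate-dependent dioxygenases that need molecular oxygen and remove the methyl group. In the developing mouse cortex, m6A is known for pacing the cell cycle of radial glia and the timing of neurogenesis.

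Gene counts totalled 36252027 to 47084796 per library, and 19936 genes were tested. Fewer genes reached 10 counts in P12 libraries: 12785 and 11695 in hypoxia, and 14129 and 16468 in normoxia. Every embryonic library had at least 17520 such genes. The 100 most abundant genes took 26.7% or more of each P12 library, and no more than 14.9% of any embryonic library. The scaling factors by which library totals were adjusted (trimmed mean of M-values, TMM) were 0.639 to 0.848 at P12 and 1.322 to 1.383 in the embryo, so the choice of scaling bears on every comparison of P12 with the embryo. Between replicates, the share of genes with a mean of at least 10 CPM (counts divided by TMM-adjusted library size) that differed more than 2-fold on the log2(CPM + 1) scale was 54.1% in hypoxia and 42.4% in normoxia, against 2% at E15 and 2.84% at E13. The cells also differed in markers. Summed over 7 astrocyte genes, the level was 7830 to 10300 CPM at P12 and 10.8 to 40.2 CPM in the embryo, and over 8 radial glia genes 3820 to 5070 CPM at P12 and 242 to 323 CPM in the embryo. Slc1a3, which astrocytes also express, made up 2410 to 3430 CPM of the P12 radial glia sum. Sox2, Pax6, Hes1, Hes5 and Fabp7 were also higher in every P12 library than in every embryonic one. Sox2 had 54.1 to 117 CPM at P12 and 4.21 to 11.8 CPM in the embryo, and Pax6 130 to 406 and 30.6 to 57.1 CPM. Vim, at 22.1 to 140 CPM at P12 and 69.2 to 208 CPM in the embryo, overlapped, as did Nes. Over 8 neuron genes the summed level was 267 to 687 CPM at P12 and 4140 to 4790 CPM in the embryo. Tubb3, Dcx, Rbfox3, Map2 and Neurod6 were lower in every P12 library than in every embryonic one. In normoxic P12 cells Snap25 (85.8 and 87.6 CPM) and Syt1 (130 and 58.6 CPM) were instead above every embryonic library (33.2 to 65.1 and 0.194 to 14.3 CPM). Stmn2 overlapped the embryo in normoxia, and in hypoxia Snap25, Syt1 and Stmn2 were all below the embryo. Neurod6, a transcription factor of excitatory neurons, had at most 0.296 CPM at P12 and 1450 to 1920 CPM in the embryo. Gfap, an astrocyte filament, had 647 to 1180 CPM at P12 and at most 0.0179 CPM in the embryo. The libraries labelled as embryonic progenitors therefore held abundant neuronal transcripts, and the P12 libraries held abundant astrocyte transcripts. The level of intermediate progenitor genes (6 genes) was 4990 to 7300 CPM at P12, of which Btg2 made up 4520 to 6560 CPM, and 448 to 1390 CPM in the embryo. The transcription factors that define that stage were lower at P12: Eomes had 12.9 to 77.7 CPM at P12 and more in every embryonic library, up to 267 CPM, and Neurog2 had 0.603 to 44.8 CPM at P12 and 77.0 to 262 CPM in the embryo. Endothelial markers (6 genes) summed to at most 10.2 CPM and microglial markers (6 genes) to at most 21.2 CPM in any library. The mural list (5 genes) summed to 1040 to 2560 CPM at P12, of which Rgs5 made up 1020 to 2500 CPM and Pdgfrb 0.629 to 72.0 CPM, with Kcnj8 at 0, and to at most 3.88 CPM in the embryo. Haemoglobin and other erythroid genes (5 genes) summed to at most 4.31 CPM at P12 and to 20.1 to 7290 CPM in the embryo. In bulk RNA, fewer cells of a type and less RNA per cell cannot be told apart.

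Both erasers were higher at P12 than in the embryo, in hypoxia and in normoxia. Fto (chromosome 8, 91313525 to 91668439, plus strand, GRCm38), which also demethylates the cap-adjacent m6Am, had 540 and 476 CPM in hypoxic P12 cells and 352 and 393 CPM in normoxic P12 cells, against 143 and 135 CPM at E15 and 133 and 110 CPM at E13. All 4 P12 libraries lay above all 4 embryonic ones, and the replicates of each group were close, no more than 1.22-fold apart. The log2 fold change of Fto was 1.96 (SE 0.19; edgeR quasi-likelihood test, Benjamini-Hochberg adjusted p = 0.00166) for hypoxic P12 cells against the embryo (the average of both stages), and 1.52 (SE 0.19; edgeR adjusted p = 0.00498) for normoxic P12 cells. Alkbh5 (chromosome 11, 60536381 to 60558512, plus strand), a nuclear demethylase, had 182 and 315 CPM in hypoxic P12 cells and 224 and 156 CPM in normoxic P12 cells, against 41.9 and 45.9 CPM at E15 and 45.8 and 55.3 CPM at E13. Here too no P12 library overlapped the embryo, but the P12 replicates were further apart than those of Fto. Its log2 fold change was 2.40 (SE 0.32; edgeR adjusted p = 0.00509) for hypoxic and 2.01 (SE 0.32; edgeR adjusted p = 0.0118) for normoxic P12 cells.

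**Figure D1:**
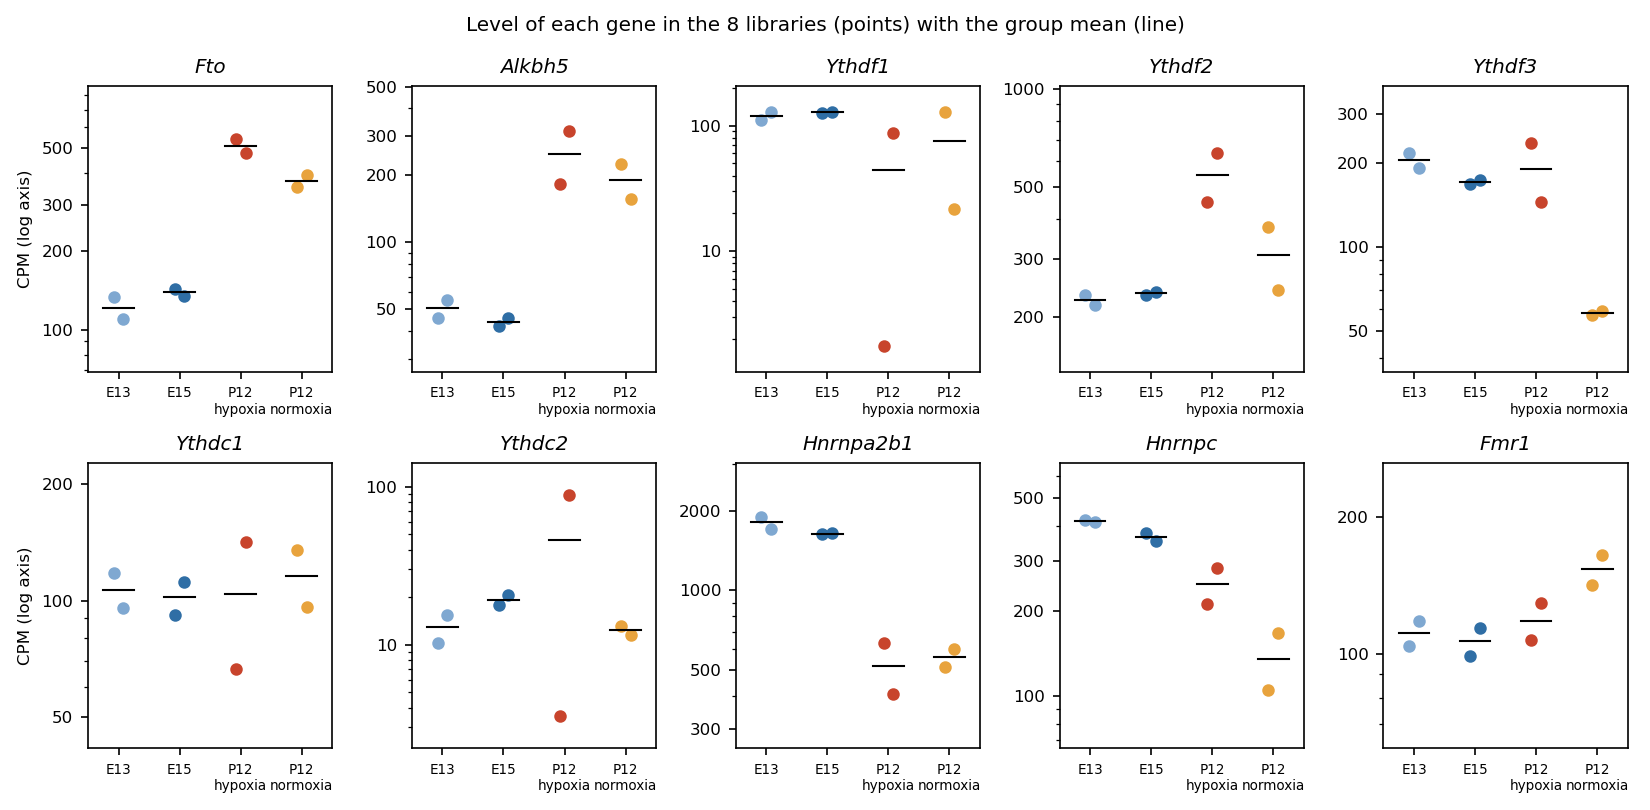
Level of each of the 10 genes (CPM, log axis) in the 2 libraries of E13, E15, P12 hypoxia and P12 normoxia; points are libraries and lines are group means. Fto and Alkbh5 lie higher in all 4 P12 libraries than in any embryonic library, Hnrnpa2b1 and Hnrnpc lie lower, and Ythdf1 and Ythdc2 differ 49.6-fold and 25.2-fold between the 2 hypoxic libraries.

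Scaling by library totals in place of TMM shifted the log2 fold changes of all tested genes by a median of -0.887 in hypoxia and -0.802 in normoxia. Fto still had positive log2 fold changes, 1.05 in hypoxia and 0.70 in normoxia, and the second did not pass (edgeR adjusted p = 0.1). Alkbh5 had 1.43 in hypoxia and 1.16 in normoxia under the same setting, and both passed. Set against each other within a library, Fto had 1.51 to 2.97 counts per count of Alkbh5 in the P12 libraries and 1.98 to 3.43 in the embryonic libraries, and these ranges overlapped.

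Among the other readers, the nuclear RNA-binding proteins went the opposite way. Hnrnpa2b1 (chromosome 6, 51460932 to 51469894, minus strand), reported as a nuclear reader that acts in processing of primary microRNAs, fell to 634 and 406 CPM in hypoxic P12 cells and 516 and 603 CPM in normoxic P12 cells, against 1630 and 1650 CPM at E15 and 1900 and 1710 CPM at E13. The highest P12 library was well below the lowest embryonic one. It fell by 1.73 on the log2 scale in hypoxia (SE 0.23; edgeR adjusted p = 0.00489) and by 1.62 in normoxia (SE 0.23; edgeR adjusted p = 0.00771). Hnrnpc (chromosome 14, 52073377 to 52104028, minus strand), which binds uridine tracts that m6A makes accessible, had 212 and 284 CPM in hypoxic and 105 and 167 CPM in normoxic P12 cells, against 376 and 352 CPM at E15 and 417 and 411 CPM at E13. All 4 P12 libraries were below the embryo and the normoxic pair was lowest. The fall passed in normoxia, by 1.52 (SE 0.28; edgeR adjusted p = 0.0193), and did not pass in hypoxia, where the log2 fold change was -0.64 (SE 0.27; edgeR adjusted p = 0.128). A processed pseudogene of Hnrnpc, Gm12696, is 97.9% identical over 905 bases and took counts equal to 17.0% to 20.4% of those of Hnrnpc in every library, so reads may be shared between them. Counts of similar genes came to 0.495% to 11.6% of those of Ythdf2 (Gm6823 and Gm8401), 0.41% to 3.5% of those of Hnrnpa2b1 (Gm5778) and 0% to 21.4% of those of Fmr1 (Dffa). The match of Dffa covers 640 bases, where Fmr1 has 8966 exonic bases. Its counts are of the whole Dffa gene and do not measure reads shared with Fmr1. Fmr1 (chromosome X, 68678541 to 68717963, plus strand), which encodes the translational regulator lost in fragile X syndrome, had 107 and 129 CPM in hypoxic and 142 and 165 CPM in normoxic P12 cells, against 98.9 and 114 CPM at E15 and 104 and 118 CPM at E13. Its log2 fold change passed in neither, being 0.12 (SE 0.25) in hypoxia and 0.49 (SE 0.25) in normoxia, and with library totals in place of TMM both turned negative, at -0.82 and -0.32 in that order.

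Promoters are shown for both erasers, which were higher at P12, and for Hnrnpa2b1 and Hnrnpc, which lay lower in every P12 library, so that genes that went in opposite directions can be set side by side. Each is given as the 250 bases before the RefSeq transcription start (GRCm38.p6, 5′ to 3′). Capitals mark the core of the hypoxia response element, ACGTG or GCGTG, read on both strands, so that a match may appear as its reverse complement.
Fto, chr8:91313275-91313524 (+ strand): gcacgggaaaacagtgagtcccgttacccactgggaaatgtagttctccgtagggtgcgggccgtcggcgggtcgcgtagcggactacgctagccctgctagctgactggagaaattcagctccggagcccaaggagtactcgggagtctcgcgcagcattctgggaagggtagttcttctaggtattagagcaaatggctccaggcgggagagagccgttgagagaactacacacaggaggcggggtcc
Alkbh5, chr11:60537433-60537682 (+ strand): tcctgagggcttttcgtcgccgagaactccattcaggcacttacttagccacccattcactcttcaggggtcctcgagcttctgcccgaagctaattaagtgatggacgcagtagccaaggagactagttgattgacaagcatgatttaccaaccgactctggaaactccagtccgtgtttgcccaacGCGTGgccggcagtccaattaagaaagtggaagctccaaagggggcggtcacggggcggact
Hnrnpa2b1, chr6:51469895-51470144 (- strand): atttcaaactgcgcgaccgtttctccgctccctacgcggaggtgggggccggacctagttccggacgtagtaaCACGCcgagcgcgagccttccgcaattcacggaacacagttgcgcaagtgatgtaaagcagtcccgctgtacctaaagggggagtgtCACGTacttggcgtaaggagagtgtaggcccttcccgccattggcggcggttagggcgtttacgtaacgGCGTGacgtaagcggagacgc
Hnrnpc, chr14:52104022-52104271 (- strand): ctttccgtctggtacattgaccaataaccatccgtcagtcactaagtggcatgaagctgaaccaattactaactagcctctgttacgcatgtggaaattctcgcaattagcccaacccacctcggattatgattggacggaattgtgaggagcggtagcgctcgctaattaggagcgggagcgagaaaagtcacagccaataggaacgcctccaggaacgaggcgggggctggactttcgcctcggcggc
The Alkbh5 window held 1 GCGTG, 62 bases before the start, and the Hnrnpa2b1 window held 1 ACGTG and 2 GCGTG. Neither motif was in the Fto or Hnrnpc window. The Alkbh5 window lies inside the GENCODE coordinates of that gene, which begin at 60536381, upstream of the RefSeq start used here. Of 32851 promoter windows of the same length, 16.6% held ACGTG and 28.2% held GCGTG. The Hnrnpc window held 4 CCAAT boxes (both strands), the Alkbh5 and Hnrnpa2b1 windows 1 each, and the Fto window 0. At least 1 was present in 33.8% of all windows. Matches are descriptions of these letters only. RefSeq entries were found for 8 of the 10 genes, and Hnrnpa2b1 had a second, overlapping window.

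Of the 3 cytoplasmic Ythdf readers, which are close paralogues, Ythdf2 rose in hypoxic P12 cells against the embryo, Ythdf3 fell in normoxic P12 cells, and Ythdf1 passed in neither. Ythdf2 (chromosome 4, 132184912 to 132212303, minus strand), which brings the CCR4-NOT deadenylase to methylated mRNA, had 449 and 639 CPM in hypoxic and 378 and 241 CPM in normoxic P12 cells, against 234 and 239 CPM at E15 and 233 and 217 CPM at E13. The hypoxic libraries lay highest and the lower normoxic library was just above the embryo. It rose in hypoxic P12 cells against the embryo by 1.24 on the log2 scale (SE 0.26; edgeR adjusted p = 0.0204), a call that was lost with library totals (0.29; edgeR adjusted p = 0.28) and with a replicate block (edgeR adjusted p = 0.051). Without hypoxic replicate 2 its adjusted p was 0.0993. In normoxic P12 cells its log2 fold change was 0.42 (SE 0.26), and with library totals -0.43. Ythdf3 (chromosome 3, 16183212 to 16217037, plus strand), which works with both other Ythdf proteins, had 237 and 145 CPM in hypoxic and 57.1 and 59.2 CPM in normoxic P12 cells, against 169 and 175 CPM at E15 and 218 and 192 CPM at E13. Only the normoxic pair stood apart from all other libraries. Ythdf3 fell in normoxic P12 cells by 1.69 (SE 0.30; edgeR adjusted p = 0.0173) and had a log2 fold change of 0.02 (SE 0.28) in hypoxic P12 cells, or -0.86 with library totals. Its fall missed the threshold without normoxic replicate 1 (edgeR adjusted p = 0.0522) or normoxic replicate 2 (0.0536).

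Ythdf1 (chromosome 2, 180904377 to 180920949, minus strand), associated with translation of methylated mRNA, had 1.75 and 86.8 CPM in hypoxic and 129 and 21.6 CPM in normoxic P12 cells, against 126 and 128 CPM at E15 and 111 and 128 CPM at E13. The 1.75 CPM rests on 52 counts, against 2346 in the other hypoxic library. Embryonic libraries were nearly equal, while P12 replicates differed 49.6-fold in hypoxia and 5.97-fold in normoxia, and neither P12 group passed. Without hypoxic replicate 2 the log2 fold change of hypoxic P12 cells against the embryo was -6.15 and passed (edgeR adjusted p = 0.041), so a single library decided it. Scaled by exon length and compared within a library, Ythdf2 made up 68.7% and 72.4% of the summed Ythdf1, Ythdf2 and Ythdf3 level in hypoxic P12 cells and 62.6% and 75.0% in normoxic P12 cells, against 38.9% to 42.5% in the embryo. The share of Ythdf3 was 14.0% and 30.9% in hypoxic and 8.04% and 15.7% in normoxic P12 cells, against 26.1% to 32.5% in the embryo. The sum of the 3 was 143 and 193 CPM per kilobase of exon in hypoxic P12 cells, 132 and 70.3 in normoxic P12 cells, and 121 to 125 in the embryo.

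**Figure D2:**
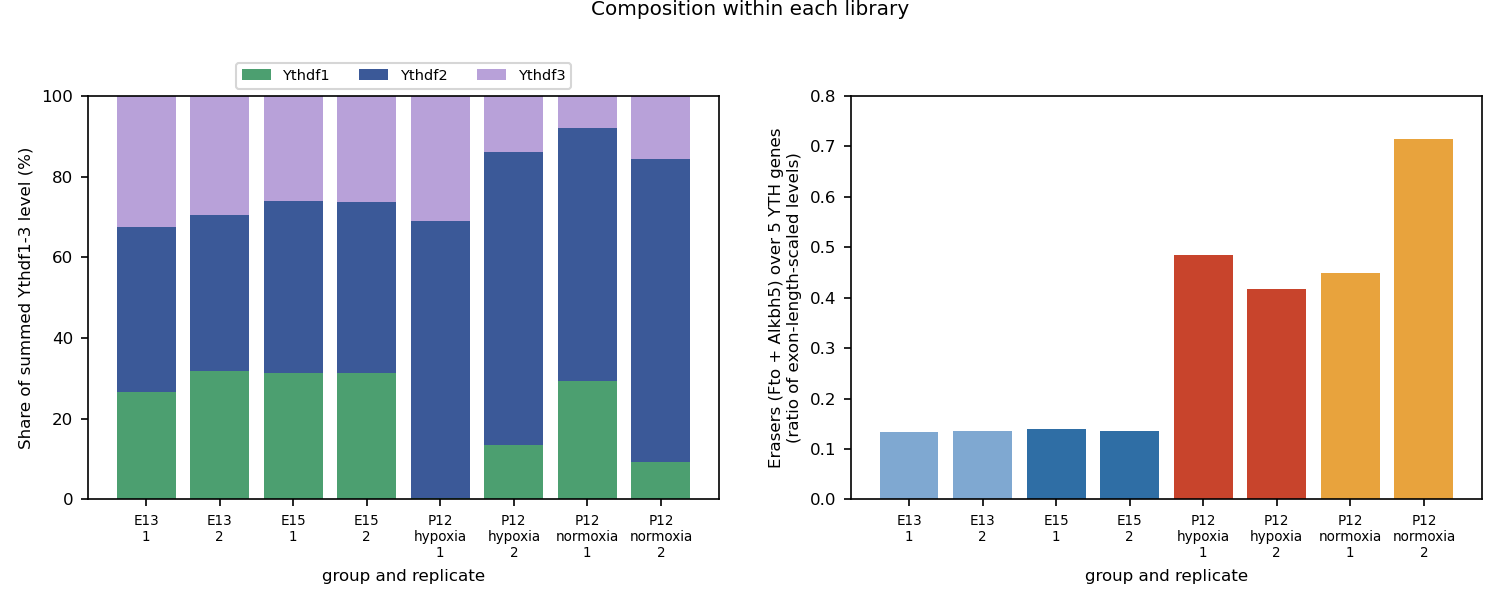
Left, share of Ythdf1, Ythdf2 and Ythdf3 (%) in their summed exon-length-scaled level in each library; right, ratio of the summed erasers (Fto and Alkbh5) to the summed 5 YTH genes, also per exon length. Ythdf2 holds over 60% in each P12 library and the eraser ratio is 0.418 to 0.715 at P12 against 0.133 to 0.139 in the embryo; bars are single libraries and have no error.

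The 2 Ythdc readers did not pass at P12. Ythdc1 (chromosome 5, 86804221 to 86836659, plus strand) had 66.5 and 142 CPM in hypoxic and 135 and 96.0 CPM in normoxic P12 cells, against 91.9 and 112 CPM at E15 and 118 and 95.6 CPM at E13. All 4 groups overlapped, with log2 fold changes against the embryo of 0.00 (SE 0.40) in hypoxia and 0.15 (SE 0.39) in normoxia, or -0.98 and -0.70 with library totals. Ythdc2 (chromosome 18, 44827746 to 44889724), an RNA helicase needed for meiosis, had 3.53 and 89.1 CPM in hypoxic and 13.2 and 11.5 CPM in normoxic P12 cells, against 17.8 and 20.7 CPM at E15 and 10.3 and 15.4 CPM at E13. Its replicates in hypoxia differed 25.2-fold and in the opposite direction to Ythdf1, from 105 and 2410 counts. Without hypoxic replicate 1 its log2 fold change against the embryo was 2.51 (edgeR adjusted p = 0.00886), and without hypoxic replicate 2 it was -2.17.

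Counted over the 10 genes, 4 passed in hypoxic P12 cells against the embryo, 3 higher and 1 lower, where 26.1% of all tested genes passed, 13.2% higher and 12.9% lower (40.9% before adjustment, at p under 0.05). In normoxic P12 cells 5 passed, 2 higher and 3 lower, where 17.8% of all tested genes passed, 12.1% higher and 5.68% lower (33.6% before adjustment). The same embryonic libraries served both comparisons. Of all genes that passed, 50.5% were higher in hypoxic P12 cells and 68.0% in normoxic P12 cells, shares that became 30.8% and 44.7% with library totals. The median log2 fold change of the 10 genes was 0.07 in hypoxia and -0.10 in normoxia, beside -0.43 and -0.04 over all tested genes. Of the 10 genes, 3 lay higher and 3 lower than every embryonic library in both hypoxic libraries, beside 21.3% and 36.3% of all tested genes, and 4 lay higher and 3 lower in both normoxic libraries, beside 27.3% and 32.1%. Summed markers of astrocytes and neurons moved with the same contrast, as given above, and their part in these results was not tested.

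**Figure D3:**
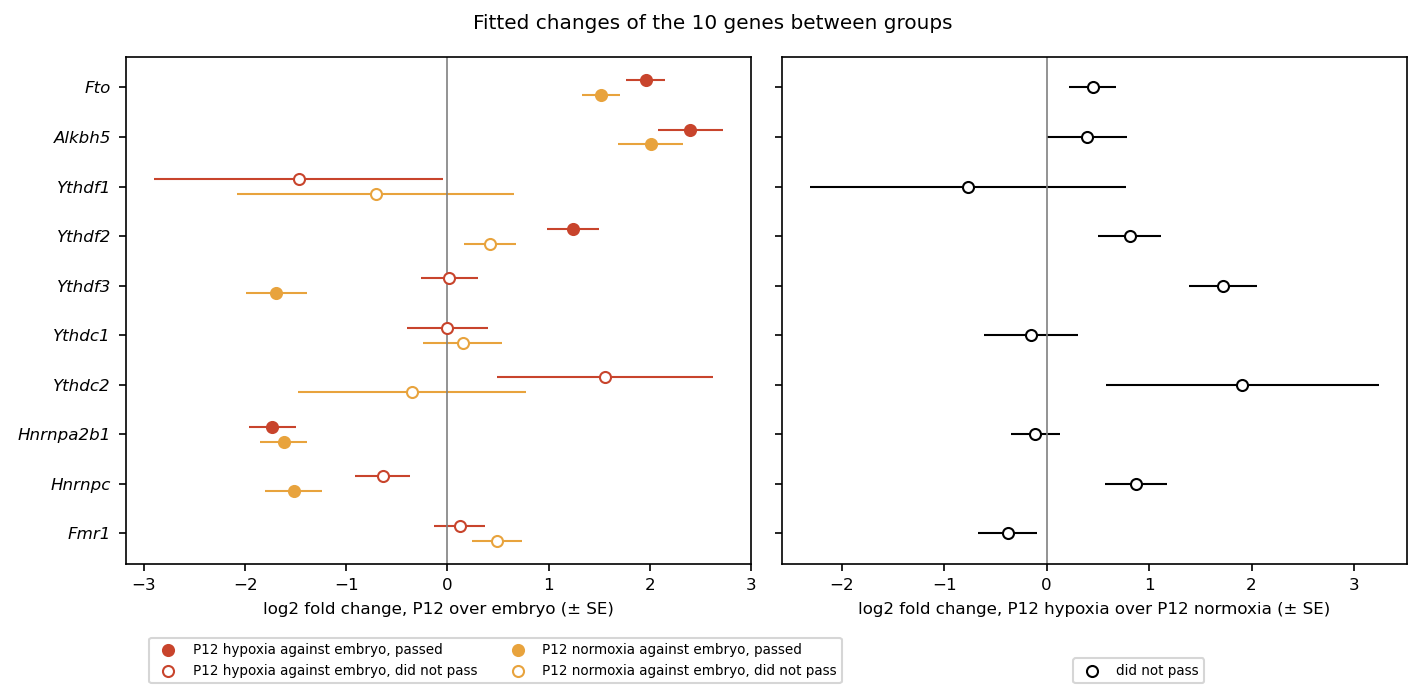
Fitted log2 fold changes (± SE from the fit of all 8 libraries, 2 per group) of the 10 genes, left for hypoxic and normoxic P12 cells over the mean of E13 and E15, right for P12 hypoxia over P12 normoxia. Filled points passed at an adjusted p under 0.05; the erasers are at 1.52 to 2.40 over the embryo, and no gene passed between the P12 groups.

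Per exon length, the erasers together reached 71.8 and 89.2 CPM per kilobase of exon in hypoxic and 64.5 and 56.2 in normoxic P12 cells, against 17.6 to 18.0 in the embryo. Divided by the sum of the 5 YTH genes, this was 0.484 and 0.418 in hypoxic and 0.449 and 0.715 in normoxic P12 cells, against 0.133 to 0.139 in the embryo. The P12 and embryonic ranges were far apart and the P12 groups overlapped. On the same scale Hnrnpa2b1 was the most abundant of the 10 in the embryo, at 247 and 250 at E15 and 289 and 260 at E13, and Ythdc2 the least, at 2 and 2.33 at E15 and 1.16 and 1.73 at E13. In hypoxic P12 cells Ythdf2 reached 98.3 and 140 beside 96.2 and 61.6 for Hnrnpa2b1. Normoxic P12 cells had 82.8 and 52.7 for Ythdf2 and 78.4 and 91.6 for Hnrnpa2b1. Exon length counts all annotated exons of a gene, 4572 bases for Ythdf2 and 6584 for Hnrnpa2b1, so ranks between genes depend on it. Before that scaling, Hnrnpa2b1 was the higher in hypoxic replicate 1 (634 CPM beside 449 CPM for Ythdf2). In hypoxic replicate 2 it was the lower (406 beside 639 CPM).

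Chronic hypoxia was compared with normoxia at P12 to ask how the cells respond to neonatal injury. Among the 10 genes the clearest difference was in Ythdf3, at 237 and 145 CPM in hypoxia and 57.1 and 59.2 CPM in normoxia. Both hypoxic libraries were above both normoxic ones, and the log2 fold change was 1.72 (SE 0.33), just short of the threshold (adjusted p = 0.0588 in edgeR). This SE and those below draw on the spread within all 8 libraries, the embryo included, and do not describe the P12 libraries alone. Replicates of Ythdf3 differed 1.63-fold in P12 hypoxia, against 1.04-fold in P12 normoxia and at E15 and 1.13-fold at E13. In the 15 alternatives its adjusted p ran from 1.19e-09 in DESeq2 to 0.441, and 4 of them passed: DESeq2, relative log expression scaling, and leaving out either hypoxic library. Hnrnpc (212 and 284 against 105 and 167 CPM; log2 fold change 0.87, SE 0.30), Ythdf2 (449 and 639 against 378 and 241 CPM; 0.81, SE 0.31) and Fto (540 and 476 against 352 and 393 CPM; 0.45, SE 0.23) were also higher in both hypoxic libraries than in both normoxic ones and did not pass. Fmr1 was the one gene lower in both, with 107 and 129 against 142 and 165 CPM (log2 fold change -0.38, SE 0.29).

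In all, 4 of 10 genes lay higher and 1 lower without overlap, beside 13.1% and 20.1% of all tested genes. In edgeR's quasi-likelihood test 0 of the 10 passed after adjustment, 3 had an unadjusted p under 0.05 (Ythdf2, Ythdf3 and Hnrnpc), and 3.02% of all tested genes passed, 0.196% as higher and 2.82% as lower, with 18.2% at an unadjusted p under 0.05. DESeq2 called 3 of the 10, all higher (Ythdf3, Hnrnpc and Fto), and limma-voom 0. The median log2 fold change of the 10 genes was 0.42, beside 0.00 over all tested genes. Alkbh5 overlapped between the groups, with 182 and 315 CPM in hypoxia and 224 and 156 CPM in normoxia (log2 fold change 0.39, SE 0.39), and was at -0.07 without hypoxic replicate 2. Hnrnpa2b1 (-0.11, SE 0.24) and Ythdc1 (-0.15, SE 0.46) overlapped as well, and both turned positive, at 0.07 and 0.06, with relative log expression scaling. Ythdf1 (-0.77, SE 1.54) and Ythdc2 (1.91, SE 1.33) overlapped with wide errors, and without hypoxic replicate 1 Ythdf1 was at 0.29 and Ythdc2 at 2.96, where Ythdc2 passed (edgeR adjusted p = 0.019). Without hypoxic replicate 2 both were negative, Ythdf1 at -5.49 and Ythdc2 at -1.80, and neither passed. Without normoxic replicate 1 Ythdf1 was at 1.33, so the direction of both genes turned on single libraries. Oligodendrocyte progenitor markers (6 genes, summed) were at 873 and 1490 CPM in hypoxia and 456 and 315 CPM in normoxia, and oligodendrocyte markers (6 genes, summed) at 1160 and 1970 CPM in hypoxia and 201 and 589 CPM in normoxia, with Mog at 0 in both hypoxic libraries. The mural list went the other way, at 1280 and 1040 CPM in hypoxia and 2560 and 2000 CPM in normoxia, nearly all from Rgs5. The summed neuron genes overlapped, at 267 and 687 CPM in hypoxia and 502 and 539 CPM in normoxia, but 4 of the 8 were lower in both hypoxic libraries than in both normoxic ones by a wide margin. Of these, Snap25 had 0.605 and 0.333 CPM in hypoxia and 85.8 and 87.6 CPM in normoxia, and Syt1 had 0 and 0.111 CPM in hypoxia and 130 and 58.6 CPM in normoxia. Stmn2 had 0.101 and 0.074 CPM in hypoxia and 29.3 and 40.5 CPM in normoxia, and Rbfox3 had 0.101 and 7.14 CPM in hypoxia and 65.5 and 51.3 CPM in normoxia. Map2 went the other way without overlap, at 177 and 310 CPM in hypoxia and 80.3 and 151 CPM in normoxia. Tubb3, Dcx and Neurod6 overlapped. The part of these markers in the differences was not tested.

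Within the embryo, E15 was compared with E13 to follow the genes over the days of neurogenesis. None of the 10 passed in edgeR, with 0 at an unadjusted p under 0.05, where 0% of all tested genes passed and 3.46% had an unadjusted p under 0.05. DESeq2 and limma-voom called 0 of the 10 too. Over all tested genes DESeq2 called 373, so the 0% belongs to the edgeR fit. The largest fitted value was that of Ythdc2, at 17.8 and 20.7 CPM at E15 and 10.3 and 15.4 CPM at E13 (log2 fold change 0.58, SE 1.29). Each SE here draws on the spread within all 8 libraries, P12 included, and does not describe the embryo alone. Replicates of Ythdc2 differed 25.2-fold in P12 hypoxia, against 1.16-fold at E15 and 1.49-fold at E13. Ythdf3 had 169 and 175 CPM at E15 and 218 and 192 CPM at E13 (-0.25, SE 0.32), and Hnrnpc 376 and 352 CPM at E15 and 417 and 411 CPM at E13 (-0.19, SE 0.30). Of the 10, 3 were higher in both E15 libraries and 3 lower, beside 23.6% and 25.8% of all tested genes. The remaining log2 fold changes lay between -0.21 (Alkbh5) and 0.20 (Fto). Erythroid markers differed with stage, at 20.1 and 85.5 CPM at E15 and 2240 and 7290 CPM at E13, and their part was not tested.

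Ordered by group mean, Fto and Ythdf2 both ran from P12 hypoxia through P12 normoxia and E15 to E13, with no overlap between neighbours. For Ythdf2 the lower normoxic library had 241 CPM beside 239 CPM in the higher E15 library. The lower E15 library had 234 CPM beside 233 CPM in the higher E13 library. With library totals the log2 fold change of Ythdf2 in normoxic P12 cells against the embryo was -0.43, so its order depends on the scaling. Hnrnpc ran from E13 through E15 and P12 hypoxia to P12 normoxia, again with no overlap. For Hnrnpa2b1 the order was E13, E15, P12 normoxia and P12 hypoxia, with overlap between the P12 groups. Alkbh5 ran from P12 hypoxia through P12 normoxia and E13 to E15, its neighbours overlapping within P12 and within the embryo. For Ythdf3 only the step down to P12 normoxia was free of overlap, for Ythdc2 only the step from E15 to E13, and for Fmr1 only the step from P12 normoxia to P12 hypoxia. All neighbours overlapped for Ythdf1 and Ythdc1. The share of all tested genes with such orders was not counted.

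The gene whose profile over the 8 libraries was nearest to that of Fto, among 9528 genes, was Emc2, a subunit of the endoplasmic reticulum membrane complex. Its root mean square distance on the centred log2(CPM + 1) scale was 0.11, and it had 98.1 and 103 CPM in hypoxic and 61.7 and 86.2 CPM in normoxic P12 cells, against 28.7 and 27.9 CPM at E15 and 26.9 and 23.6 CPM at E13. The splicing factor Rbm25 followed at 0.15. Nearest to Alkbh5 were Elof1, a transcription elongation factor (0.12), and Canx, the chaperone calnexin (0.14). Nearest to Hnrnpa2b1 were Marcksl1 and Nutf2 (0.17 each), and nearest to Hnrnpc were Pde7a and Zfp740 (0.13 each). Ythdf2 lay nearest to Ndufs7 (0.12) and Mepce (0.13), Ythdf3 to Cse1l (0.18) and Sap30bp (0.23), Ythdc1 to Gmcl1 (0.11) and Mgea5 (0.13), and Fmr1 to Ndufs1 (0.13) and Eif2b5 (0.14). The profile of Ythdf1 had Mtmr1 at 0.21 and Ankrd50 at 0.24, and that of Ythdc2 had Rev3l at 0.37 and Tnks at 0.39. Mtmr1 shared the split between the hypoxic libraries, with 0.135 and 42.0 CPM. Among the 10 genes themselves, Fto and Alkbh5 were each other's nearest (0.42), as were Ythdc1 and Fmr1 (0.33) and Ythdf3 and Hnrnpc (0.44). These distances rank likeness in 8 libraries that share their groups, and carry no test.

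Genes that work with the readers and erasers gave a mixed picture at P12. Their counts stand beside 13.2% of all tested genes higher and 12.9% lower in hypoxic P12 cells, and 12.1% higher and 5.68% lower in normoxic P12 cells. In the methyltransferase complex (9 genes, all tested), Rbm15, an RNA-binding adaptor, rose by 4.17 on the log2 scale in hypoxic (SE 0.38) and by 3.41 in normoxic P12 cells (SE 0.37) against the embryo, with 157 and 319 CPM in hypoxia and 159 and 121 CPM in normoxia against 8.98 to 17.8 CPM. Mettl14, which binds RNA for the catalytic subunit, rose in hypoxic P12 cells (86.3 and 140 CPM against 33.4 to 41.6 CPM in the embryo), but not with library totals, where its log2 fold change was 0.64 (edgeR adjusted p = 0.214). The other writers did not pass, and the list's median was -0.09 in hypoxia and -0.52 in normoxia. The nearest relatives of the erasers in the AlkB family (7 genes) had 0 passing in normoxia and 1 lower in hypoxia, where Alkbh3, a DNA and RNA alkylation repair enzyme, had 0 and 3 counts against 718 to 1313 in the embryo. In normoxia, edgeR gave its smallest p for Alkbh7 (16.9 and 39.8 CPM against 9.71 to 14.8 CPM) and Alkbh3, neither passing. The median log2 fold change of these 7 genes was -1.02 in hypoxia and -0.88 in normoxia. Other hnRNP genes (18) had 2 higher and 2 lower in hypoxic P12 cells and 2 higher and 5 lower in normoxic P12 cells. With TMM, Hnrnpr rose in both (614 and 770 CPM in hypoxia and 444 to 462 CPM in normoxia, against 254 to 314 CPM) and so did Hnrnpl (408 and 454 CPM in hypoxia and 395 to 546 CPM in normoxia, against 238 to 292 CPM). With library totals neither rise held, at 0.42 and -0.11 for Hnrnpr and -0.21 and 0.04 for Hnrnpl, in hypoxia and normoxia, and the list had 0 higher and 8 lower in hypoxia and 0 higher and 7 lower in normoxia. With relative log expression scaling both rises passed in both P12 groups. The list then had 4 higher and 2 lower in hypoxia and 3 higher and 4 lower in normoxia. Hnrnpab fell in both (108 and 272 CPM in hypoxia and 95.2 to 112 CPM in normoxia, against 643 to 726 CPM). So did Hnrnpm (105 and 228 CPM in hypoxia and 135 and 182 CPM in normoxia, against 459 to 601 CPM). In normoxia the test was also passed by Hnrnpu (456 and 613 CPM against 1100 to 1380 CPM) and Hnrnph1 (199 and 294 CPM against 664 to 716 CPM), both lower. The list's median was -0.30 in hypoxia and -0.54 in normoxia.

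Of the CCR4-NOT deadenylase (11 genes), 1 was higher and 2 lower in hypoxic P12 cells and 1 higher and 1 lower in normoxic P12 cells. With library totals 4 were lower in hypoxia (Cnot6, Cnot7, Cnot8 and Cnot11) and 2 in normoxia (Cnot1 and Cnot7), and with relative log expression scaling 1 was lower in each. Cnot9 rose in both, by 3.23 (SE 0.19) in hypoxia and 2.81 (SE 0.19) in normoxia, with 549 and 552 CPM in hypoxia and 397 and 431 CPM in normoxia against 47.7 to 70.9 CPM. The deadenylase subunit Cnot7 fell in both (69.3 and 126 CPM in hypoxia and 59.4 and 103 CPM in normoxia, against 268 to 291 CPM), and Cnot11 fell in hypoxia, to 4 and 9 counts, against 1778 to 2588 in the embryo. The fall of Cnot7 in hypoxia missed the threshold with relative log expression scaling (edgeR adjusted p = 0.0787), and the list's median was -1.09 in hypoxia and -0.79 in normoxia. Among splicing and export partners of Ythdc1 (6 genes), Srsf10 rose in both, with 1300 to 1700 CPM in hypoxia and 691 to 1270 CPM in normoxia against 200 to 215 CPM. Srsf7 fell in both (80.8 and 111 CPM in hypoxia and 41.9 and 144 CPM in normoxia, against 515 to 580 CPM), and Srsf3, through which Ythdc1 promotes exon inclusion, fell in normoxia (61.3 and 146 CPM against 602 to 698 CPM). With library totals 4 of the 6 were lower in hypoxia and 3 in normoxia. The list's median was -0.58 in hypoxia and -0.34 in normoxia, and that of the Fmr1 partners -1.80 and -1.58. Partners of the Fmr1 protein (6 genes) had 2 lower in each P12 group: Caprin1, a stress granule protein (300 and 397 CPM in hypoxia and 166 and 244 CPM in normoxia, against 1090 to 1130 CPM), and Nufip1, with 1 and 1 counts in hypoxia and 2 and 0 in normoxia against 1369 to 1753. Fewer genes were detected in the P12 libraries, as given above. The part of this in the lowest counts of Alkbh3, Cnot11 and Nufip1 was not tested. Of other reported readers (10 genes) 0 passed in edgeR with TMM. With library totals Elavl1, an mRNA-stabilising protein, passed as lower in hypoxia (edgeR adjusted p = 0.0477) and normoxia (0.0436), and Igf2bp1 in normoxia (0.04). The list's median was -0.91 in hypoxia and -0.50 in normoxia, beside -0.43 and -0.04 over all tested genes. Its members include Igf2bp2, with 0.111 to 3.09 CPM in hypoxia against 37.5 to 125 CPM in the embryo, and Igf2bp1, with 25.7 and 28.8 CPM in hypoxia and 9.81 and 24.3 CPM in normoxia against 33.4 to 102 CPM. Between the P12 groups and between the embryonic stages no gene of these 7 lists passed in edgeR. The smallest p between the P12 groups was that of Mettl14 (86.3 and 140 CPM in hypoxia against 30.1 and 28.2 CPM in normoxia; edgeR adjusted p = 0.0983). With library totals, the rises of Rbm15, Cnot9 and Srsf10 kept their direction and passed, and so did the falls named here. That setting moves fold changes against the embryo downward, by a median of -0.887 in hypoxia and -0.802 in normoxia. It therefore did not put the falls at risk.

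**Figure D4:**
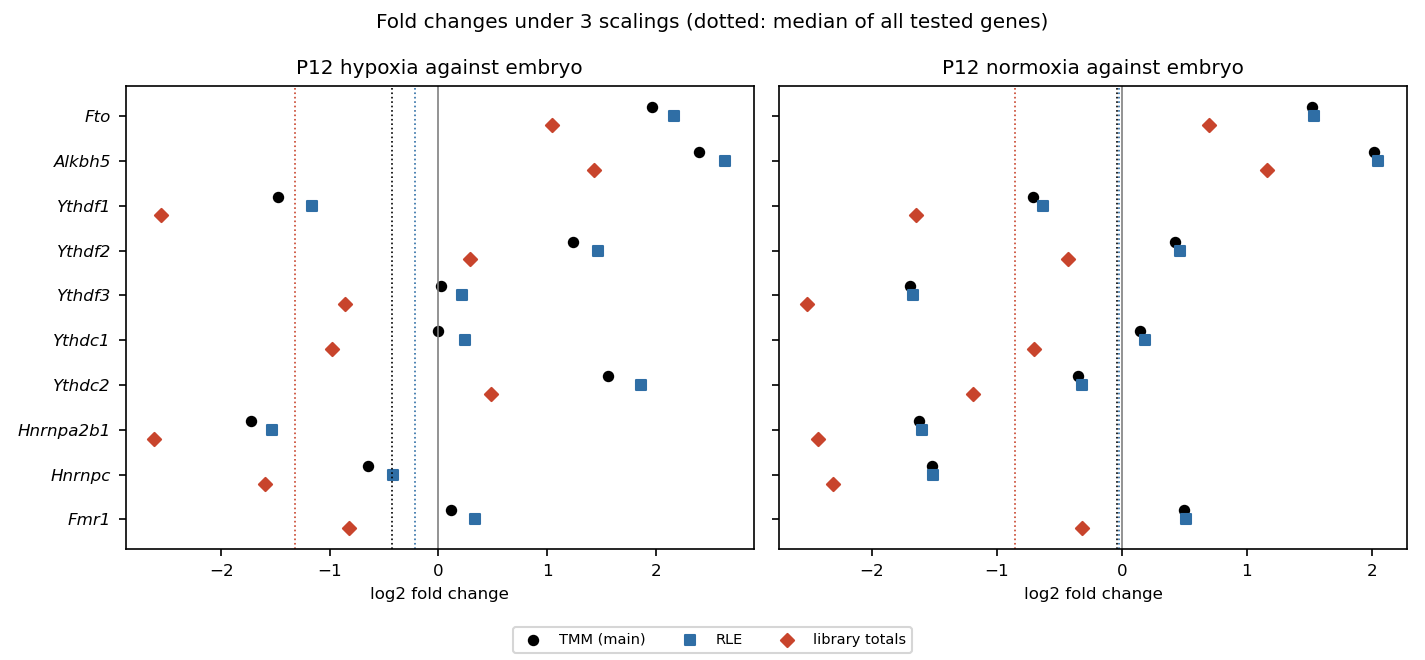
Log2 fold changes of the 10 genes in hypoxic (left) and normoxic (right) P12 cells over the embryo under TMM, relative log expression (RLE) and library-total scaling; dotted lines are the median of all tested genes under each. Library totals move every gene down by about the shift of that median, with Fto and Alkbh5 above 0 and Hnrnpa2b1 and Hnrnpc below 0 under all 3.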

How the data were processed

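The authors deposited raw counts per gene, 1 file per library of tdTomato-positive cells, made per the submitters' processing notes with cutadapt, STAR and Subread on GRCm38; versions, annotation, strand setting and handling of multi-mapping reads are not given in the sources used here. Of 55487 rows, 1980 named no gene (0.205% to 0.266% of counts) and were left out. With R 4.3.3 and edgeR 4.0.16, libraries were TMM-scaled, filterByExpr (minimum count 10, minimum total 15) kept 19936 genes, and a quasi-likelihood fit of 4 groups over all 8 libraries (4 residual degrees of freedom) gave two-sided tests of 4 contrasts, Benjamini-Hochberg adjusted over all tested genes, threshold 0.05. The embryo is the mean of E13 and E15. SEs come from the F statistic. Levels are CPM on TMM-adjusted library sizes. Levels between genes use exon length from GENCODE M21, which also gave coordinates. Copies were sought with blastn 2.17.0 (at least 95% identity over 300 bases). Alternatives used DESeq2 1.42.0, limma 3.58.1 (voom with sample weights), relative log expression, library totals (added after seeing the data, also for the partner lists), no filter, a replicate block, only the compared groups, and leaving out each library. All 10 genes are named; of 7 partner lists, up to 3 passing genes of smallest p per direction, or the 2 of smallest p. The genes and lists were chosen with earlier results of these data known. Intervals of counting error are not given; the labels name no molecular identifiers. The fit was tested on simulated counts that gave each gene the same spread in all groups. That test cannot show how the fit does where P12 replicates spread more than embryonic ones, as here. Replicate numbers follow the titles.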

Additional observations from a re-analysis of the deposited data

How the results depend on the processing

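Fto and Alkbh5 in hypoxic P12 cells against the embryo kept direction and side of the threshold in all 15 alternatives, with log2 fold changes of 1.05 to 2.17 and 1.43 to 2.75. In normoxic P12 cells Fto passed in 13 of 15 (adjusted p up to 0.1), Alkbh5 in 10 and Hnrnpc in 10, Ythdf3 in 9 (0.0522 to 0.102 where it failed) and Hnrnpa2b1 in 14 (0.0513 with limma-voom). Of these 5 genes, Alkbh5, Hnrnpc and Ythdf3 missed the threshold without any 1 embryonic library, a fit with fewer samples. Hnrnpa2b1 in hypoxic P12 cells missed it with limma-voom (0.126). Ythdf2 in hypoxic P12 cells passed in 8 of 15. For the other failures the cause was not tested. Over 40 fold changes and 15 alternatives, 563 of 600 values stayed on their side of the threshold, 27 lost it, 10 gained it and none that passed changed sign.

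Between P12 hypoxia and normoxia, 602 genes passed, against 3981 in DESeq2, 0 in limma-voom (1699 at an unadjusted p under 0.05), 295 without the low-count filter, 1 with the replicate block and 0 on the compared groups only (1558 unadjusted), and 0 to 3018 without 1 library (3018 and 1740 after dropping hypoxic replicate 1 or 2, 922 and 982 after dropping normoxic replicate 1 or 2, and 0 after dropping any embryonic library). Of the 10 genes 0 passed, against 3 in DESeq2, 1 with relative log expression scaling and 0 to 2 without 1 library. Between E15 and E13, 0 genes passed (690 at an unadjusted p under 0.05), against 373 in DESeq2, 935 in limma-voom and 229 on the compared groups only. For normoxic P12 cells against the embryo, 3541 genes passed, against 7252 in DESeq2, 1705 with the replicate block, 6731 on the compared groups only and 928 to 5990 without 1 library. Of the 10 genes 5 passed, against 1 to 5 without 1 library (2 without normoxic replicate 1 and 1 or 2 without an embryonic library). For hypoxic P12 cells against the embryo, 5208 genes passed, against 9001 in DESeq2, 2390 in limma-voom, 2868 with the replicate block and 1562 to 6836 without 1 library.

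Equal replicate numbers are not said to mark a shared animal, litter or day, and deviations from group means correlated at -0.044 to 0.014 over 6 pairs of groups, so the numbers were not taken as pairs. How far depth limits precision was not tested.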
